A study of Rattus norvegicus with 9 samples.

Results

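Interleukins are secreted proteins by which leukocytes and tissue cells signal to each other, and their receptors are mostly paired chains of which one binds the ligand and a shared one carries the signal. The genes described here are the rat interleukins and interleukin receptors: the rows of a femur count table whose symbol begins with Il and a digit, without Il2rb, Il5ra and Il34, and with the row of the highest count where a symbol recurred. Of the 81 rows that match that pattern, under 80 symbols, 3 are left out by name, and 48 genes reached the limit of 30 counts summed over the 9 libraries, out of 31125 gene rows in all. Another 29 genes were below the limit, 9 of them with no count in any library. Just inside the limit were Il6 with 39 counts and Il9r and Il17rb with 45 each; just outside were Il12b with 27, Il21 with 26 and Il20ra with 23. Some members bear the name only by convention: Il4i1 encodes an L-amino-acid oxidase induced by interleukin-4, and Il18bp and Il22ra2 encode soluble binding proteins of interleukin-18 and interleukin-22.

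Poly(A)-selected bulk RNA from whole femurs of male rats was sequenced 7 days after surgery, in 3 groups of 3 libraries. In the GMTT group the distal femoral growth plate was injured and treated with a hydrogel named GMTT, which the series title describes as GelMa with TPGS and tea polyphenols. The GPI group had the growth plate injury without the gel, and the Sham group had sham surgery. The labels give neither the strain nor the age, no group with an unloaded gel is among these libraries, and 1 library stands for each of the 3 rats a group has in the labels; whether RNA was pooled is not stated, so p-values measure only the spread between these libraries. The title places the study's question in pyroptosis of chondrocytes through NLRP3 and caspase-1, the pathway whose protease cleaves the precursors of interleukin-1 beta and interleukin-18.

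In bone, interleukin-1 and interleukin-6 are best known for driving osteoclast formation and cartilage matrix breakdown, while interleukin-7 and its receptor serve lymphocyte development in the marrow. The interleukin-1 family works as agonist ligands checked by 3 kinds of brake: a receptor antagonist (Il1rn), a decoy receptor that binds ligand without signalling (Il1r2), and secreted binding proteins such as Il18bp. Interleukin-6 and its relatives signal through gp130, the product of Il6st, and many lymphocyte interleukins signal through a common gamma chain.

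The libraries held 15927429 to 19715997 counts. Members took 0.142% ± 0.00222 of all counts in GMTT, 0.0300% ± 0.000842 in GPI and 0.110% ± 0.00144 in Sham (SD, n = 3 each). The groups also differed in how much of the counts went to markers of other tissues and cell types. Skeletal muscle genes (18) took 3.01% in GMTT, 15.7% in GPI and 0.316% in Sham, and mitochondrially encoded genes (37) took 6.17% in GMTT, 26.6% in GPI and 3.99% in Sham. The leukocyte lists took their lowest shares in GPI. Neutrophil genes (17) took 1.51% in GMTT, 0.000875% in GPI and 1.28% in Sham. Monocyte and macrophage genes (13) took 0.639% in GMTT, 0.00901% in GPI and 0.609% in Sham. Lyz2 had the most counts of that list (283167 in GMTT, 1422 in GPI and 261158 in Sham). Others of it were less reduced in GPI, such as Mrc1 (4946, 872 and 4120) and Cd14 (965, 183 and 441). B cell genes (11) took 0.0725% in GMTT, 0.00147% in GPI and 0.117% in Sham. T and NK cell genes (13) took 0.0157% in GMTT, 0.000137% in GPI and 0.0127% in Sham. Those of mast cells, basophils and eosinophils (11) took 0.226% in GMTT, 0.00236% in GPI and 0.445% in Sham. Ebf1 of the B cell list kept 717 counts in GPI (3496 in Sham), and Gata2 of the mast cell list kept 857 (1378 in Sham). Erythroid genes (16) took 4.75% in GMTT, 0.257% in GPI and 8.75% in Sham, osteoblast genes (9) took 0.969% in GMTT, 0.337% in GPI and 0.710% in Sham, and chondrocyte genes (9) took 0.0522% in GMTT, 0.0237% in GPI and 0.0266% in Sham. Single genes could run against the sum of their list. Col11a1 had the most counts of the chondrocyte list (18259 in GMTT, 9899 in GPI and 10888 in Sham). Prg4 came next in GMTT (6566) and GPI (1541) and had 170 in Sham. By raw counts Acan, Comp and Matn3 were highest in GMTT, as the sum was. Col2a1, the main cartilage collagen, had 165 counts in GMTT, 127 in GPI and 905 in Sham. Col9a1 (5, 3 and 28) was also highest in Sham. Sox9 (57, 105 and 76) and Col10a1 (92, 494 and 114) were highest in GPI. Mast cell and basophil genes were mixed. Mcpt10 and Hdc had more counts in GMTT (18927 and 2131) than in Sham (7425 and 1208), and Cpa3 had fewer (472 against 793). Kit (1428 and 1384), Tpsab1 (177 and 185), Fcer1a (241 and 231), Ms4a2 (3284 and 3032) and Gata2 (1543 and 1378) were closer to level. The eosinophil gene Prg2 was lower (52449 in GMTT, 116548 in Sham). Vpreb1, Slc14a1, Cd8b, Klrb1 and Ncr1 had no count in GPI, and Marco had none in any group. These shares set GPI apart as many members do, and their part in the results was not tested; in bulk tissue fewer cells of a type and less RNA per cell cannot be told apart. The labels name the femur for all 9 libraries. Every osteoblast gene was detected in each group, and each had fewer raw counts in GPI than in Sham. The marker counts and shares here do not carry the TMM scaling used for the members below. Its factors were 0.600 to 0.604 in GPI and 1.28 to 1.30 in the other groups. Gaps between GPI and another group no larger than that scaling, such as those of Col1a1, Acan and Col11a1, can change direction under it. Col1a1 had by far the most counts of that list (473954 in GMTT, 183638 in GPI and 302458 in Sham). Dmp1, Mepe and Phex had 348, 102 and 87 counts in GPI against 13454, 9287 and 1213 in Sham.

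All 15936 genes that passed a low-count filter were tested in 1 model with edgeR's quasi-likelihood test, and called here means an adjusted p (Benjamini-Hochberg) under 0.05. Of the 48 members, 42 were tested; Il6, Il9r, Il17rb, Il17re, Il1rl2 and Il31ra had too few counts. In GPI against Sham, 11 members were called higher and 26 lower, and 5 were not called. That is 88.1% of those tested, against 88.2% of all genes tested (40.1% higher and 48.1% lower), so the share called is at the background. The median log2 fold change was −2.58 over the 42 members and −0.19 over all genes tested. In GMTT against GPI, 28 members were called higher, 10 lower and 4 not, or 90.5% against 85.9% of all genes (45.7% higher and 40.2% lower), with a median of 2.50 against 0.12 for all genes. In GMTT against Sham, 23 members were called higher, 4 lower and 15 not, or 64.3% against 57.8% of all genes (29.5% higher and 28.3% lower), with a median of 0.36 against 0.00. Of the 27 members called there, 22 (81.5%) differed by less than 2-fold, against 79.9% of all called genes, so this is the size of the comparison as a whole. In GPI against Sham 2 of 37 called members (5.41%) differed by less than 2-fold, against 33.9% of all called genes, and in GMTT against GPI 4 of 38 (10.5%), against 38.2%. The 3 comparisons share their groups pairwise, so a low value in GPI enters both comparisons that use it. Normalised CPM (scaled counts relative to the library size) and log2 fold changes below use TMM scaling, and a standard error (SE) stands beside each fold change. With library totals as the only scaling, the median over all genes fell by a further 1.09 in GPI against Sham, to 3521 genes called higher and 11210 lower in place of 6387 and 7662, and the members called higher numbered 7 in place of 11. In GMTT against GPI that scaling raised the median by 1.10, gave 11500 genes higher and 3016 lower in place of 7285 and 6400, and left 4 members called lower in place of 10.

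**Figure D1:**
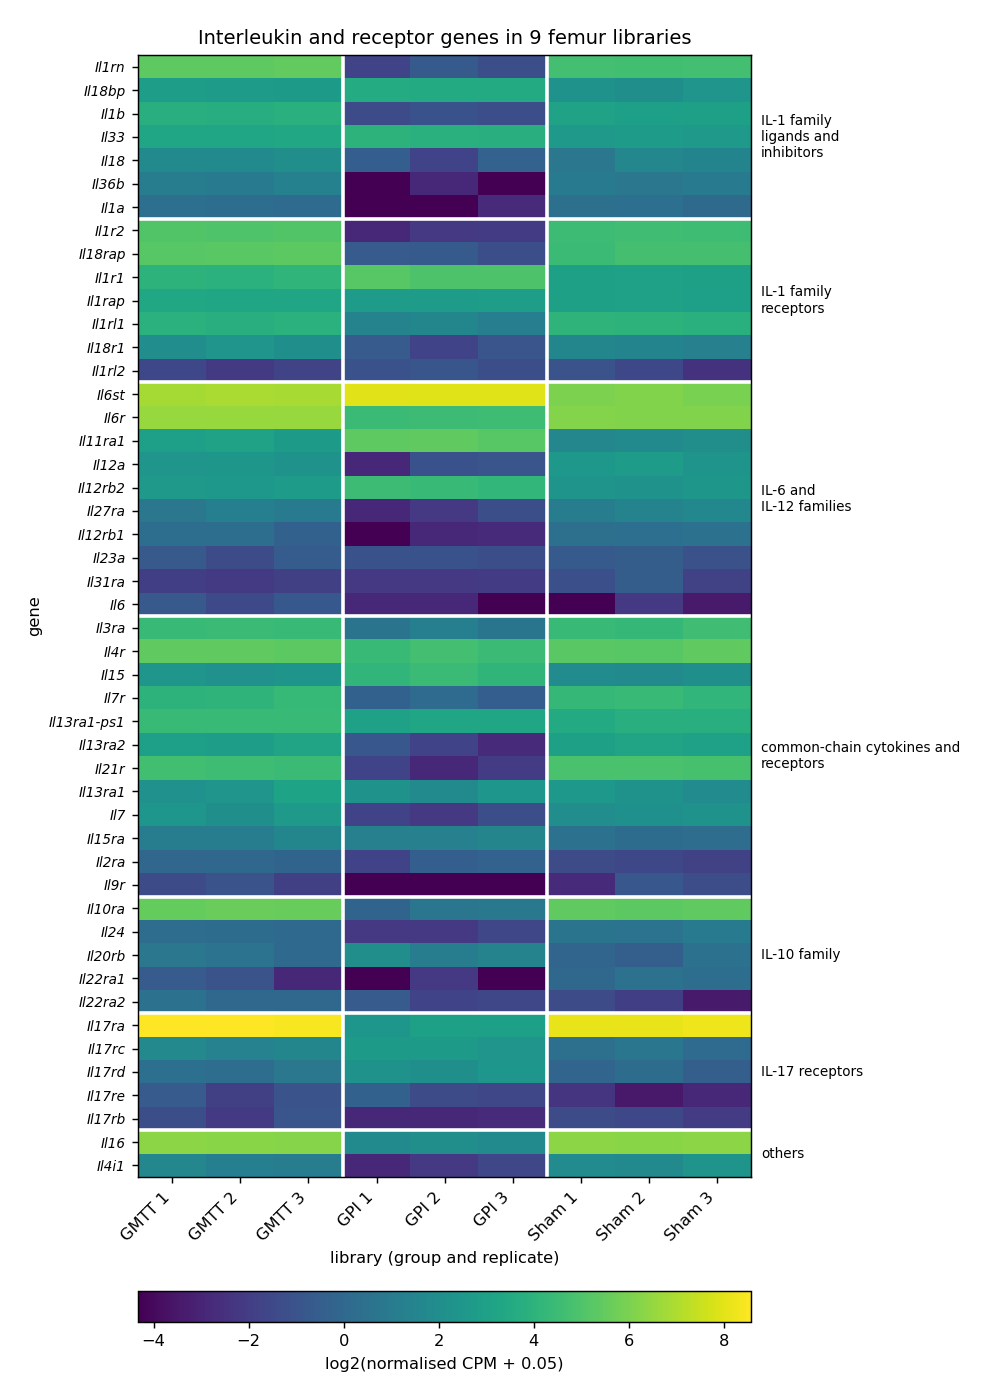
Level of each of the 48 members (rows, by family) in the 9 libraries (columns, GMTT, GPI and Sham), coloured by log2(normalised CPM + 0.05), yellow high and dark blue low. Most rows are lowest in the 3 GPI libraries, and a smaller set that includes Il11ra1, Il15, Il12rb2 and Il17rd is highest there.

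Il1b encodes interleukin-1 beta, the pyrogenic ligand that caspase-1 activates, and Il1rn encodes the antagonist that competes with it for the receptor. They lie on chromosome 3 in mRatBN7.2, Il1b at chr3:116577010-116583415 on the minus strand and Il1rn at chr3:7111550-7127445 on the plus strand. Il1r1, the signalling receptor of both interleukin-1 ligands, lies at chr9:42504735-42579937 on the plus strand. The 250 bases before the annotated start of these 3 genes are shown because Il1b and Il1rn were low together in GPI while Il1r1 was high there. They are RefSeq sequences of build GRCr8, 5′ to 3′ on the gene's strand, and capitals mark the TATA box letters TATAAA, or TTTATA where they are on the other strand:

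Il1b (chr3:137036582-137036831, minus strand): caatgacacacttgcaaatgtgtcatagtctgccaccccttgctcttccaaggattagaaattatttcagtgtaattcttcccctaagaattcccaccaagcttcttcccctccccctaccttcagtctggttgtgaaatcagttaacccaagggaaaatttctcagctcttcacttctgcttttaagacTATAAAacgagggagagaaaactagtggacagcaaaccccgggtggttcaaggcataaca
Il1rn (chr3:27520072-27520321, plus strand): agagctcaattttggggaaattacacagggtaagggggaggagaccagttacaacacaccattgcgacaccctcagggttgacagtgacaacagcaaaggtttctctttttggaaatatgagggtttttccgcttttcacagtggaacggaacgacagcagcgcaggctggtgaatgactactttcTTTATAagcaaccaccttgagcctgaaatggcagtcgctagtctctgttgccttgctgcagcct
Il1r1 (chr9:50034133-50034382, plus strand): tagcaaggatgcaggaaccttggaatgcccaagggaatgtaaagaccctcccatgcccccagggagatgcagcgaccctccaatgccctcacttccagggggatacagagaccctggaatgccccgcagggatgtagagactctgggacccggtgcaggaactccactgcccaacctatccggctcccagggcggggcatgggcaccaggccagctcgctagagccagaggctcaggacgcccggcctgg

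The Il1b and Il1rn windows hold those letters, beginning 60 and 64 bases before the start, and the Il1r1 window holds none of the 4 motifs searched on both strands. TATAAA occurs in 12.9% of 33469 RefSeq windows of the same length and in 9 of the 46 windows (19.6%) of the 39 members with an entry. GAGGAA, the core bound by PU.1, occurs in 23.3% of all windows and 12 member windows (26.1%). TGANTCA, bound by AP-1, occurs in 6.34% and 4 member windows (8.70%), and TTGCNNAA, bound by C/EBP factors, in 9.22% and 5 member windows (10.9%). A match is a run of letters and does not show that a factor binds.

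Among the 7 ligands and inhibitors of the interleukin-1 family, 5 were called lower and 2 higher in GPI than in Sham. In GMTT against GPI 5 were called higher and 2 lower. Of all genes tested, 88.2% and 85.9% were called in these comparisons. Il1b had 13.9, 13.1 and 14.3 normalised CPM in the GMTT libraries, 0.339, 0.420 and 0.385 in the GPI libraries and 8.51, 7.67 and 7.95 in the Sham libraries. The 3 groups did not overlap, and GMTT was highest. Il1b thus differed by −4.37 (SE 0.23, adjusted p = 6.48e-18) in GPI against Sham, 5.15 (SE 0.21, adjusted p = 4.18e-21) in GMTT against GPI and 0.77 (SE 0.09, adjusted p = 2.03e-08) in GMTT against Sham on the log2 scale. Il1rn had 42.0, 41.0 and 44.8 normalised CPM in GMTT, 0.254, 0.588 and 0.385 in GPI and 26.1, 25.1 and 26.0 in Sham. Again no group overlapped another, and the order was the same as for Il1b. Its log2 difference was −5.95 (SE 0.18, adjusted p = 7.61e-25) in GPI against Sham, 6.67 (SE 0.16, adjusted p = 2.72e-27) in GMTT against GPI and 0.73 (SE 0.07, adjusted p = 3.55e-11) in GMTT against Sham. The GPI values of these genes rest on 13 counts of Il1b and 14 of Il1rn over 3 libraries.

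The other agonists were also scarce in GPI. Il1a, the interleukin-1 ligand that needs no caspase-1 cleavage, had 82 counts over the GMTT libraries, 1 over the GPI libraries and 79 over the Sham libraries, which made it 40.5-fold higher in GMTT than in GPI (95% counting interval 7.07 to 1620) and 41.3-fold lower in GPI than in Sham (7.19 to 1650). Its single GPI count was in GPI 3; without that library the fitted log2 difference was −7.59 in GPI against Sham and 7.56 in GMTT against GPI, in place of −5.08 and 5.05. Il36b, an interleukin-36 agonist best known from epithelia, had 50, 44 and 56 counts in GMTT, 0, 1 and 0 in GPI and 38, 39 and 44 in Sham. GPI lay below both other groups, which overlapped each other when normalised. Il36b was 74.1-fold higher in GMTT than in GPI (13.1 to 2948) and 63.2-fold lower in GPI than in Sham (11.1 to 2517); the fitted log2 differences of 5.92 (SE 0.57) and −5.69 (SE 0.60) became 8.41 and −8.19 without GPI 2. In GMTT against Sham neither gene was called (Il36b 0.23, SE 0.20; Il1a −0.03, SE 0.25, which changed sign to 0.01 with median-of-ratios scaling). Il18, the other caspase-1 substrate, had 3.46, 3.60 and 4.12 normalised CPM in GMTT, 0.677, 0.252 and 0.771 in GPI and 1.66, 3.12 and 2.80 in Sham. GPI was again lowest and apart from the rest. It differed by −2.18 (SE 0.33) in GPI against Sham, 2.73 (SE 0.31) in GMTT against GPI and 0.55 (SE 0.19, adjusted p = 0.0126) in GMTT against Sham; the last call was lost with DESeq2 (adjusted p = 0.0734) and without Sham 1 (adjusted p = 0.138). Il18 overlaps Bco2 on the opposite strand, and since the strand setting of the counting is not given in the sources used here, reads of the pair may be mixed.

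The binding protein and the alarmin of the family were higher in GPI under TMM scaling, though not with library totals alone. Il18bp had 7.25, 6.68 and 6.41 normalised CPM in GMTT, 12.4, 11.7 and 11.8 in GPI and 4.89, 4.29 and 5.20 in Sham. With TMM scaling GPI was highest, with no overlap between any groups. Il33, a nuclear cytokine released from damaged cells, had 9.60, 9.89 and 10.3 normalised CPM in GMTT, 16.3, 14.4 and 14.2 in GPI and 6.26, 6.67 and 6.35 in Sham. Its groups were ordered in the same way. The log2 differences in GPI against Sham were 1.32 (SE 0.12) for Il18bp and 1.22 (SE 0.11) for Il33, and with library totals alone they were 0.23 and 0.13 and not called (adjusted p = 0.0706 and 0.255). In GMTT against GPI they were −0.82 (SE 0.11) and −0.59 (SE 0.10). With library totals alone they changed sign to 0.28 and 0.51 and were called higher (adjusted p = 0.0186 and 1.61e-05). Both were higher in GMTT than in Sham, by 0.50 (SE 0.12) and 0.63 (SE 0.10) on the log2 scale.

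The genes of 6 receptors of the family sit side by side on the plus strand of chromosome 9, in the order Il1r2, Il1r1, Il1rl2, Il1rl1, Il18r1 and Il18rap, from base 42384433 to 42800959 in mRatBN7.2. Neighbours in this row differed in direction. Il1r2, the decoy receptor (chr9:42384433-42424725), had 34.1, 32.3 and 33.4 normalised CPM in GMTT, 0.0847, 0.168 and 0.193 in GPI and 23.2, 24.3 and 23.4 in Sham. It was close to undetected in all GPI libraries, with 5 counts in total against 2294 in GMTT and 1543 in Sham. Its log2 differences of −7.27 (SE 0.21, adjusted p = 3.36e-25) in GPI against Sham and 7.76 (SE 0.19, adjusted p = 8.56e-27) in GMTT against GPI rest on those 5 counts (by scaled counts 161-fold lower, 95% counting interval 68.9 to 497, and 227-fold higher, 97.0 to 699), and GMTT against Sham gave 0.49 (SE 0.07, adjusted p = 1.45e-07). Il1r1, the next gene, had 16.1, 15.0 and 17.2 normalised CPM in GMTT, 36.9, 31.6 and 31.1 in GPI and 8.12, 8.19 and 7.86 in Sham. With TMM scaling GPI was highest and Sham lowest, without overlap. Il1r1 was higher in GPI than in Sham by 2.04 (SE 0.09, adjusted p = 6.67e-20) and in GMTT than in Sham by 1.00 (SE 0.09, adjusted p = 6.38e-11); in GMTT against GPI it differed by −1.04 (SE 0.08, adjusted p = 2.71e-13), or 0.06 with library totals alone. Il1rl2, the interleukin-36 receptor, had 17 counts over GMTT, 15 over GPI and 19 over Sham and was not tested.

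The remaining receptors of the row were low in GPI. Il1rl1, the receptor of interleukin-33 found on mast cells, basophils and innate lymphoid cells, had 15.1, 13.7 and 14.8 normalised CPM in GMTT, 2.71, 3.02 and 2.22 in GPI and 16.5, 16.1 and 14.5 in Sham, so that GMTT and Sham overlapped and GPI lay apart. It differed by −2.55 (SE 0.14) in GPI against Sham and 2.44 (SE 0.14) in GMTT against GPI, and by −0.11 (SE 0.09, adjusted p = 0.273) in GMTT against Sham. The 2 chains of the interleukin-18 receptor differed in size of change. Il18rap, the accessory chain, had 37.7, 38.2 and 39.7 normalised CPM in GMTT, 0.593, 0.588 and 0.385 in GPI and 22.2, 27.5 and 27.5 in Sham. No group overlapped another. It differed by −5.59 (SE 0.18, adjusted p = 1.44e-23) in GPI against Sham, 6.17 (SE 0.17, adjusted p = 1.45e-25) in GMTT against GPI and 0.58 (SE 0.07, adjusted p = 3.89e-08) in GMTT against Sham. Il18r1, the ligand-binding chain, differed by −2.61 (SE 0.31) in GPI against Sham, 3.32 (SE 0.28) in GMTT against GPI and 0.71 (SE 0.16) in GMTT against Sham. Il1rap, the accessory chain shared by the receptors of interleukins 1, 33 and 36 and encoded elsewhere, differed by −0.20 (SE 0.12, not called) in GPI against Sham (−1.29 and called with library totals alone, adjusted p = 5.61e-12), 0.50 (SE 0.11) in GMTT against GPI (1.60 with library totals alone) and 0.31 (SE 0.10, adjusted p = 0.00829) in GMTT against Sham, a call lost without GMTT 1 (adjusted p = 0.0568).

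Ratios of 2 genes within a library do not depend on the scaling between libraries; the 5 pairs here were chosen after their values were seen and are given without a test. Per length, in the deposited FPKM, the ratio of Il1r1 to its decoy Il1r2 was 0.139 ± 0.00782 in GMTT, 75.0 ± 43.4 in GPI and 0.0978 ± 0.00224 in Sham (SD, n = 3 each). Signalling receptor thus outnumbered decoy in each GPI library and decoy outnumbered signalling receptor in the other 6, with the GPI ratios resting on 1 or 2 counts of Il1r2 per library. Il1rn over Il1b was 2.81 ± 0.0579 in GMTT, 0.952 ± 0.297 in GPI and 2.90 ± 0.104 in Sham. Il18bp over Il18 was 1.83 ± 0.273 in GMTT, 26.6 ± 17.1 in GPI and 2.05 ± 0.802 in Sham. The GPI ratios rest on 3, 7 and 4 counts of Il1rn, 4, 5 and 4 of Il1b and 8, 3 and 8 of Il18. Reads of Il18 may also be mixed with those of Bco2. The GMTT and Sham ranges were apart for the first ratio and overlapped for the other two, and GPI lay outside both in all 3.

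**Figure D2:**
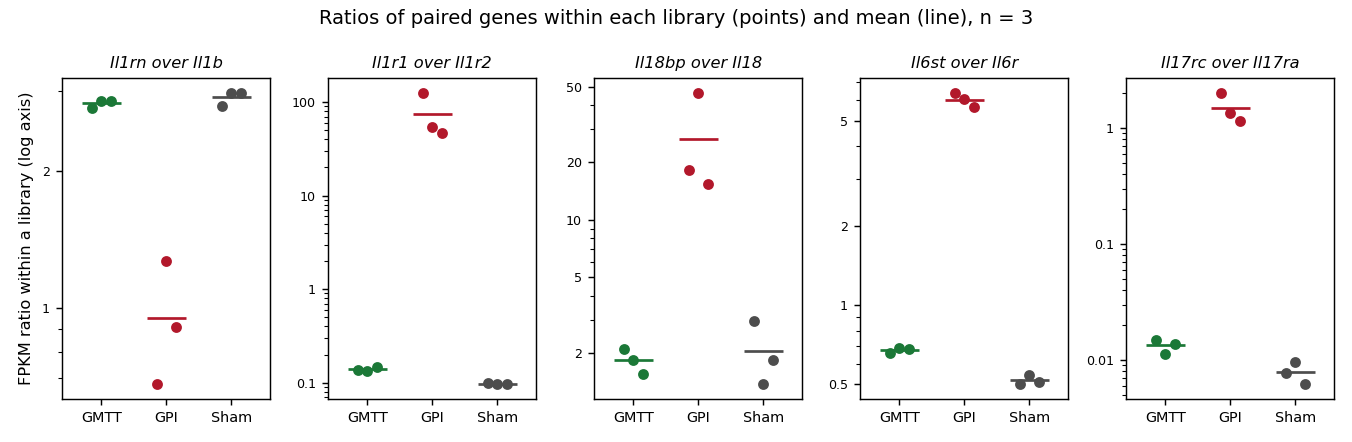
Within-library ratios of FPKM for 5 pairs of members (panels, log axis) in the GMTT, GPI and Sham libraries (points). The Il1r1 over Il1r2 ratio is between 46.3 and 125 in the GPI libraries and at most 0.148 in the other 6; horizontal lines are means of 3.

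Il6, a cytokine induced early in injured tissue and at chr4:5213394-5219178 on the minus strand, had 13, 7 and 12 counts in the GMTT libraries, 1, 1 and 0 in the GPI libraries and 0, 4 and 1 in the Sham libraries. Every GMTT library was above every library of the other groups, which overlapped each other. Scaled, Il6 was 7.91-fold higher in GMTT than in GPI (95% counting interval 2.02 to 68.1) and 6.06-fold higher in GMTT than in Sham (2.34 to 19.9), and GPI over Sham was 0.766 (0.0729 to 4.68). Too low for the filtered fit, Il6 was called higher in GMTT when all genes entered without a filter, by 2.88 on the log2 scale against GPI (adjusted p = 0.00145) and by 2.51 against Sham (adjusted p = 0.000518), but not in GPI against Sham (−0.37, adjusted p = 0.811). Leaving out the filter also moved adjusted p-values of tested members. Il13ra1 in GMTT against GPI went from 0.185 to 0.0051 at nearly the same log2 difference (0.45 and 0.48). In GMTT against Sham, Il17rd went from 0.0454 to 0.0519 and Il24 from 0.0413 to 0.0759. The calls of Il6 come from that unfiltered fit and carry less weight than calls of the filtered fit. No change of Il6 between GPI and Sham was detected.

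Of the 10 members of the interleukin-6 and interleukin-12 families, 3 were called higher and 4 lower in GPI than in Sham. In GMTT against GPI 4 were called higher and 3 lower, and in GMTT against Sham 4 higher and none lower. Il6 and Il31ra were not tested. Of all genes tested, 88.2%, 85.9% and 57.8% were called in these comparisons. Il6st encodes gp130, the signalling chain of interleukins 6 and 11, leukaemia inhibitory factor and oncostatin M (chr2:44066130-44109936, plus strand). It had 114, 121 and 117 normalised CPM in GMTT, 255, 249.9 and 244 in GPI and 65.2, 69.1 and 63.8 in Sham. The groups were apart, with GPI highest under TMM scaling. Il6st differed by 1.92 (SE 0.05, adjusted p = 2.75e-26) in GPI against Sham, −1.09 (SE 0.05, adjusted p = 7.78e-20) in GMTT against GPI (0.01 with library totals alone) and 0.83 (SE 0.05, adjusted p = 2.26e-15) in GMTT against Sham. Its partner Il6r, the interleukin-6-binding chain, ran opposite in the comparisons with GPI: it had 96.4, 96.9 and 95.2 normalised CPM in GMTT, 22.2, 22.9 and 24.1 in GPI and 72.1, 70.2 and 69.5 in Sham. Il6r was lowest in GPI and highest in GMTT. Its log2 difference was −1.62 (SE 0.06, adjusted p = 1.3e-21) in GPI against Sham, 2.06 (SE 0.06, adjusted p = 1.03e-24) in GMTT against GPI and 0.45 (SE 0.05, adjusted p = 4.35e-09) in GMTT against Sham. Within libraries, Il6st over Il6r in FPKM was 0.676 ± 0.0174 in GMTT, 6.01 ± 0.374 in GPI and 0.518 ± 0.0237 in Sham (SD, n = 3 each), with no overlap.

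Il11ra1, the interleukin-11-binding chain that pairs with gp130 and is known from bone and skull suture growth (chr5:56935516-56941408, plus strand), had the highest difference of all tested members in GPI against Sham. It had 7.81, 8.61 and 6.41 normalised CPM in GMTT, 41.3, 43.0 and 37.2 in GPI and 3.08, 3.38 and 4.05 in Sham. GPI stood far above, and GMTT remained above Sham. The log2 difference was 3.53 (SE 0.11, adjusted p = 4.6e-24) in GPI against Sham, −2.41 (SE 0.10, adjusted p = 5.2e-21) in GMTT against GPI and 1.12 (SE 0.13, adjusted p = 1.23e-08) in GMTT against Sham. Il12rb2, the signalling chain of the interleukin-12 receptor, had 6.10, 5.89 and 6.67 normalised CPM in GMTT, 23.0, 21.2 and 18.4 in GPI and 5.04, 4.72 and 5.56 in Sham. GPI was again highest and GMTT lay just above Sham. It differed by 2.03 (SE 0.11, adjusted p = 1.55e-17) in GPI against Sham and −1.75 (SE 0.11, adjusted p = 3.5e-16) in GMTT against GPI. Its difference of 0.29 (SE 0.12, adjusted p = 0.0442) in GMTT against Sham was lost with DESeq2 (adjusted p = 0.0724) and a replicate block (0.0607). It was also lost without GMTT 1 (0.0661), GMTT 3 (0.130), Sham 1 (0.0975) or Sham 2 (0.162).

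Il12rb1, Il12a and Il27ra fell in GPI. Il12rb1, with which Il12rb2 forms the receptor, had 73 counts over GMTT, 2 over GPI and 85 over Sham, 22.2-fold lower in GPI than in Sham (5.96 to 186) and 18.0-fold higher in GMTT than in GPI (4.82 to 152). Il12a, the p35 subunit of interleukin-12, differed by −4.18 (SE 0.30) in GPI against Sham and 3.98 (SE 0.31) in GMTT against GPI. Il27ra, the interleukin-27 receptor, had only 7 counts over GPI. It differed by −3.65 (SE 0.40) and 3.24 (SE 0.42) in these comparisons, or −4.32 and 3.92 without GPI 3. None of the 3 was called in GMTT against Sham (−0.30, −0.20 and −0.40 on the log2 scale, adjusted p = 0.322, 0.211 and 0.0789), and Il23a, the p19 subunit of interleukin-23, was called in no comparison under TMM scaling; with library totals alone it was called in GPI against Sham (−1.49, adjusted p = 0.00189) and GMTT against GPI (1.38, adjusted p = 0.00394). Without Sham 1, Il27ra was called in GMTT against Sham (−0.54, adjusted p = 0.0334). Il31ra, untested, had 14 counts over GMTT, 6 over GPI and 28 over Sham.

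Il17ra, the chain common to interleukin-17 receptors (chr4:153667534-153690174, plus strand), had the highest mean FPKM of all members. It had 376, 381 and 355 normalised CPM in GMTT, 5.42, 7.98 and 7.61 in GPI and 286, 281 and 299 in Sham. It was abundant in GMTT and Sham and low in GPI, with GMTT above Sham throughout. The log2 difference was −5.37 (SE 0.08, adjusted p = 3.26e-33) in GPI against Sham, 5.73 (SE 0.08, adjusted p = 1.23e-33) in GMTT against GPI and 0.36 (SE 0.05, adjusted p = 3.43e-07) in GMTT against Sham. Il17rc, which pairs with Il17ra to bind interleukins 17A and 17F (chr4:146619004-146631442, plus strand), had 3.33, 2.59 and 2.94 normalised CPM in GMTT, 6.52, 6.47 and 5.20 in GPI and 1.32, 1.60 and 1.10 in Sham. Under TMM scaling the partner chain was thus highest where Il17ra was lowest. Il17rc differed by 2.17 (SE 0.19, adjusted p = 3.25e-12) in GPI against Sham, −1.04 (SE 0.16, adjusted p = 8.28e-07) in GMTT against GPI (0.06 with library totals alone) and 1.13 (SE 0.19, adjusted p = 8.81e-06) in GMTT against Sham. Il17rc over Il17ra in FPKM was 0.0133 ± 0.00177 in GMTT, 1.50 ± 0.452 in GPI and 0.00780 ± 0.00168 in Sham.

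Il17rd (chr16:2228287-2292556, plus strand) encodes an orphan-like receptor, also known as Sef, that damps fibroblast growth factor signals. It had 1.24, 1.19 and 1.67 normalised CPM in GMTT, 4.74, 4.20 and 5.39 in GPI and 0.881, 1.13 and 0.690 in Sham. It was highest in GPI, with GMTT and Sham close to each other. It differed by 2.39 (SE 0.22, adjusted p = 1.49e-11) in GPI against Sham, −1.80 (SE 0.20, adjusted p = 1.39e-09) in GMTT against GPI and 0.59 (SE 0.25, adjusted p = 0.0454) in GMTT against Sham. The last call was lost with DESeq2 (adjusted p = 0.101), a replicate block (0.0599), fits of 6 libraries (0.0503) and no low-count filter (0.0519). It was also lost without GMTT 3 (0.207), GPI 1 (0.0514), Sham 1 (0.0944) or Sham 3 (0.189). Il17re, the interleukin-17C receptor and the immediate upstream neighbour of Il17rc, was untested, with 29 counts over GMTT, 16 over GPI and 6 over Sham. Scaled, it was 5.11-fold higher in GPI than in Sham (1.90 to 15.9) and 4.57-fold higher in GMTT than in Sham (1.87 to 13.5). Il17rb, the interleukin-25 receptor, had 24 counts over GMTT, 3 over GPI and 18 over Sham.

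**Figure D3:**
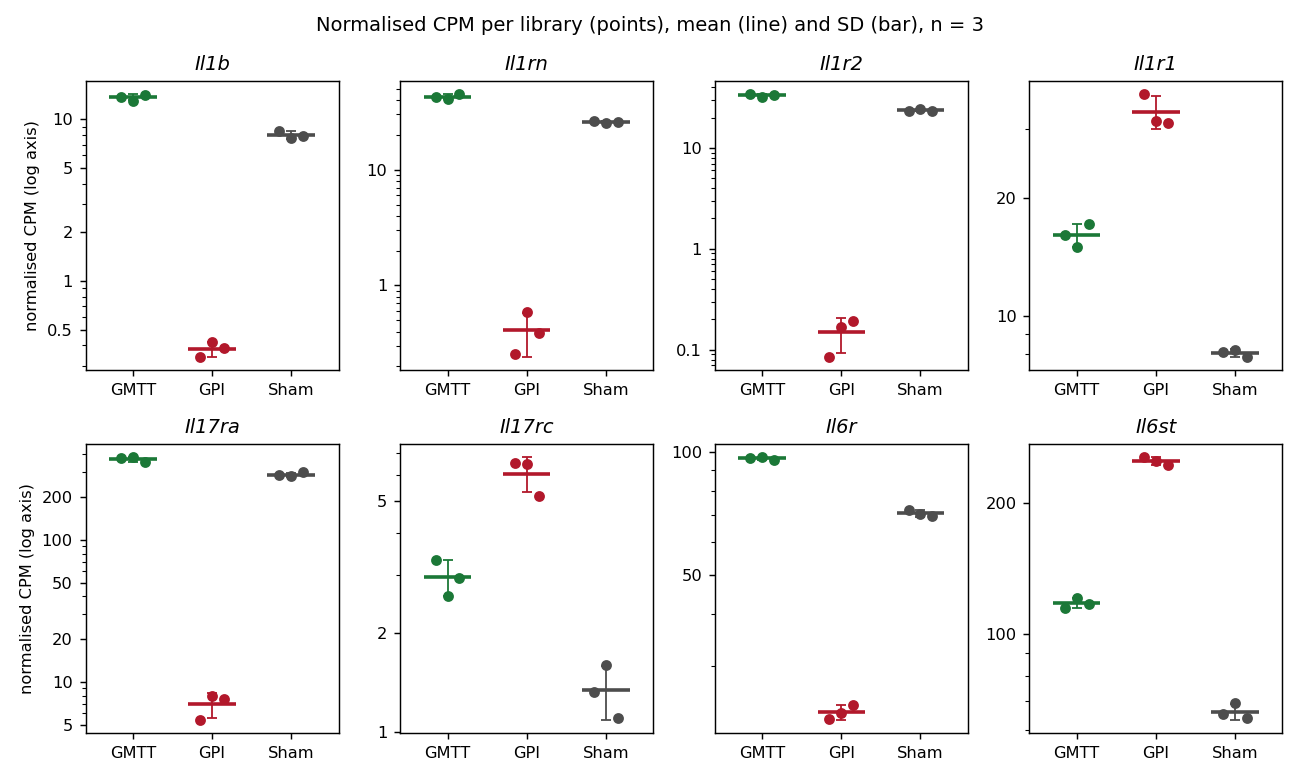
Normalised CPM (log axis) of members described in the text, 1 panel each, with the GMTT, GPI and Sham libraries as points, means as lines and SD as bars. Il1b, Il1rn, Il1r2, Il17ra and Il6r are lowest in GPI, and Il1r1, Il17rc and Il6st are highest there under TMM scaling, while GMTT against GPI is 0.06, 0.06 and 0.01 on the log2 scale with library totals alone.

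Of the 12 receptors and ligands grouped with the common gamma and beta chains, 7 were called lower and 2 higher in GPI than in Sham. In GMTT against GPI 7 were called higher and 1 lower, and in GMTT against Sham 4 higher and 1 lower. Il9r was not tested. Of all genes tested, 88.2%, 85.9% and 57.8% were called in these comparisons. Il21r, a receptor of B, T and NK cells (chr1:180168097-180195522, plus strand), was close to undetected in GPI. It had 25.2, 23.9 and 22.1 normalised CPM in GMTT, 0.254, 0.0840 and 0.193 in GPI and 29.0, 28.9 and 28.6 in Sham. Only 6 counts were found over the GPI libraries (by scaled counts 164-fold lower than in Sham, 95% counting interval 75.2 to 447), and here GMTT lay below Sham. Il21r differed by −7.30 (SE 0.20, adjusted p = 1.33e-25) in GPI against Sham, 7.02 (SE 0.21, adjusted p = 1.45e-24) in GMTT against GPI and −0.28 (SE 0.07, adjusted p = 0.00104) in GMTT against Sham. Il7, the marrow stromal cytokine of lymphocyte precursors, had only 9 counts over GPI. Il7 and Il7r, its receptor, differed by −4.00 (SE 0.32) and −4.52 (SE 0.18) in GPI against Sham. In GMTT against GPI they differed by 4.27 (SE 0.31) and 4.35 (SE 0.19). Neither was called in GMTT against Sham (0.27, SE 0.14, and −0.16, SE 0.09), though Il7 was without GMTT 2 (0.39, adjusted p = 0.0320) and Il7r without GMTT 3 (−0.26, adjusted p = 0.0121) or Sham 3 (−0.22, adjusted p = 0.0454). Il3ra, the interleukin-3 receptor of basophils and myeloid precursors, differed by −3.56 (SE 0.15) in GPI against Sham and 3.57 (SE 0.15) in GMTT against GPI. Il13ra2, a receptor of interleukin-13 often described as a decoy, had only 10 counts over GPI. It differed by −4.82 (SE 0.28) and 4.74 (SE 0.28) in these comparisons, or −5.51 and 5.43 without GPI 1. Il4r, the interleukin-4 receptor of many cell types, changed less, by −0.76 (SE 0.08) in GPI against Sham and 0.84 (SE 0.08) in GMTT against GPI. Il9r, the interleukin-9 receptor, had 23 counts over GMTT, none over GPI and 22 over Sham; against a floor of 3 counts it was at least 3.79-fold higher in GMTT than in GPI and at least 3.83-fold lower in GPI than in Sham. That floor limits the GPI count alone; the 95% counting intervals of the ratios, which also cover the other group, begin at 2.84 and 2.86.

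Interleukin-15 and its presenting receptor were the exceptions. Il15 (chr19:25640251-25706820, plus strand), a cytokine that skeletal muscle and stromal cells also make, had 5.16, 4.53 and 5.05 normalised CPM in GMTT, 17.8, 22.4 and 17.0 in GPI and 3.62, 3.38 and 4.18 in Sham. GPI was far above the others, as were the skeletal muscle genes (15.7% of counts in GPI), whose part in this value was not tested. Il15 differed by 2.36 (SE 0.13, adjusted p = 8.03e-18) in GPI against Sham, −1.96 (SE 0.12, adjusted p = 3.09e-16) in GMTT against GPI and 0.40 (SE 0.14, adjusted p = 0.0162) in GMTT against Sham, the last not called without GMTT 1 (adjusted p = 0.0551) or Sham 2 (adjusted p = 0.0773). Il15ra, which presents interleukin-15 to neighbouring cells, had 2.13, 2.15 and 2.98 normalised CPM in GMTT, 2.37, 2.44 and 2.89 in GPI and 1.37, 1.13 and 1.15 in Sham. Both injured groups were above Sham and overlapped each other. It differed by 1.07 (SE 0.24, adjusted p = 0.000114) in GPI against Sham (−0.02 with library totals alone), −0.08 (SE 0.21, not called) in GMTT against GPI (1.02 with library totals alone) and 1.00 (SE 0.21, adjusted p = 0.000134) in GMTT against Sham. Il2ra, the high-affinity interleukin-2 chain of activated and regulatory T cells, had 0.896, 0.967 and 0.834 normalised CPM in GMTT, 0.254, 0.672 and 0.771 in GPI and 0.343, 0.303 and 0.230 in Sham. All GMTT values were above all others, and GPI overlapped Sham. It was higher in GMTT than in Sham by 1.60 (SE 0.37, adjusted p = 0.000381) and not called against GPI (0.68, SE 0.38, adjusted p = 0.0940; 1.77 and called with library totals alone).

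The interleukin-13 receptor rows are uncertain. The table places Il13ra1 on chromosome 11 in a single block of 3751 bases and Il13ra1-ps1 on chromosome X over 59822 bases, while RefSeq (GRCr8) puts the coding gene on X and the pseudogene on 11. Reads of a gene and such a copy may be split between them. The X row differed by −0.50 (SE 0.11) in GPI against Sham, 1.18 (SE 0.10) in GMTT against GPI and 0.68 (SE 0.08) in GMTT against Sham, and the chromosome 11 row was called in none. The chromosome 11 row became called in GMTT against GPI with library totals alone (1.55), with no low-count filter (0.48, adjusted p = 0.00510) and without GMTT 1 (0.64, adjusted p = 0.0243), in GMTT against Sham with no low-count filter (adjusted p = 0.0249) and without GMTT 1 (adjusted p = 0.0493), and in GPI against Sham with library totals alone (−1.19).

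In the interleukin-10 family, Il10ra, the receptor of interleukin-10 on leukocytes, had 45.9, 49.3 and 48.1 normalised CPM in GMTT, 0.847, 1.60 and 1.73 in GPI and 43.4, 39.7 and 43.5 in Sham. GPI was low and GMTT slightly above Sham. It differed by −4.93 (SE 0.13) in GPI against Sham, 5.11 (SE 0.13) in GMTT against GPI and 0.18 (SE 0.06, adjusted p = 0.0154) in GMTT against Sham, the last lost without GMTT 2 (adjusted p = 0.0763) or Sham 2 (adjusted p = 0.0988). Il22ra2, the soluble antagonist of interleukin-22, had 1.37, 0.967 and 0.965 normalised CPM in GMTT, 0.593, 0.252 and 0.289 in GPI and 0.343, 0.217 and 0.0460 in Sham. GMTT exceeded both other groups, which overlapped. Il22ra2 differed by 2.43 (SE 0.41, adjusted p = 7.46e-06) in GMTT against Sham, the highest value of that comparison among members, and by 1.51 (SE 0.43, adjusted p = 0.00192) in GMTT against GPI. Il22ra1, the cell-surface receptor of interleukin-22 known from epithelia, went against it in GMTT against Sham but not in GMTT against GPI. Il22ra1 had 14, 10 and 2 counts in GMTT, 0, 2 and 0 in GPI and 20, 31 and 26 in Sham. Sham was above all GMTT and GPI libraries, and GMTT 3 lay below GPI 2. It was 20.1-fold lower in GPI than in Sham (95% counting interval 5.38 to 169) and differed by −1.63 (SE 0.38, adjusted p = 0.000458) in GMTT against Sham. By scaled counts it was 6.43-fold higher in GMTT than in GPI (1.61 to 55.9), and its call there (2.55, SE 0.91, adjusted p = 0.0109) was lost without GMTT 1 (adjusted p = 0.0583), GPI 1 (adjusted p = 0.0635) or GPI 3 (adjusted p = 0.0507), and without GPI 2, which held both GPI counts, the values were 5.91 in GMTT against GPI and −7.53 in GPI against Sham.

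Il20rb, a shared chain of the receptors for interleukins 19, 20 and 24, had 1.66, 1.45 and 1.01 normalised CPM in GMTT, 4.15, 2.10 and 2.70 in GPI and 0.881, 0.693 and 1.33 in Sham. GPI was highest and the other groups overlapped. It was higher in GPI than in Sham by 1.62 (SE 0.28, adjusted p = 3.63e-06) and differed by −1.11 (SE 0.26, adjusted p = 0.000241) in GMTT against GPI; with library totals alone these were 0.53 and −0.02 and not called. Il24, one of its ligands, had 1.15, 1.14 and 1.01 normalised CPM in GMTT, 0.169, 0.168 and 0.289 in GPI and 1.52, 1.47 and 1.84 in Sham. The ligand was lowest in GPI, with only 7 counts over those libraries. It differed by −2.93 (SE 0.41, adjusted p = 7.89e-08) in GPI against Sham, 2.39 (SE 0.44, adjusted p = 9.55e-06) in GMTT against GPI and −0.54 (SE 0.23, adjusted p = 0.0413) in GMTT against Sham. The last of these was lost with DESeq2 (adjusted p = 0.269), median-of-ratios scaling (0.0566), a replicate block (0.0602) and no low-count filter (0.0759). It was also lost when any 1 of the GMTT or Sham libraries was left out (adjusted p between 0.0511 without Sham 2 and 0.165 without Sham 3).

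Il16, a leukocyte chemoattractant that binds CD4, had 81.4, 76.7 and 75.5 normalised CPM in GMTT, 3.56, 4.12 and 3.47 in GPI and 79.3, 78.0 and 80.4 in Sham. GMTT and Sham overlapped, and GPI was low. It differed by −4.41 (SE 0.09) in GPI against Sham, 4.38 (SE 0.09) in GMTT against GPI and −0.02 (SE 0.05, adjusted p = 0.698; 0.01 with median-of-ratios scaling) in GMTT against Sham. Il4i1 had 3.12, 2.33 and 2.11 normalised CPM in GMTT, 0.0847, 0.168 and 0.289 in GPI and 3.62, 3.46 and 5.01 in Sham. Sham was above GMTT and GPI was near 0, with only 6 counts over the GPI libraries. It was lower in GMTT than in Sham (−0.68, SE 0.18, adjusted p = 0.00159) and lower in GPI than in Sham (−4.47, SE 0.38); it overlaps Nup62 on the same strand, whose 9783 counts exceed its own 443, so its level is uncertain.

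**Figure D4:**
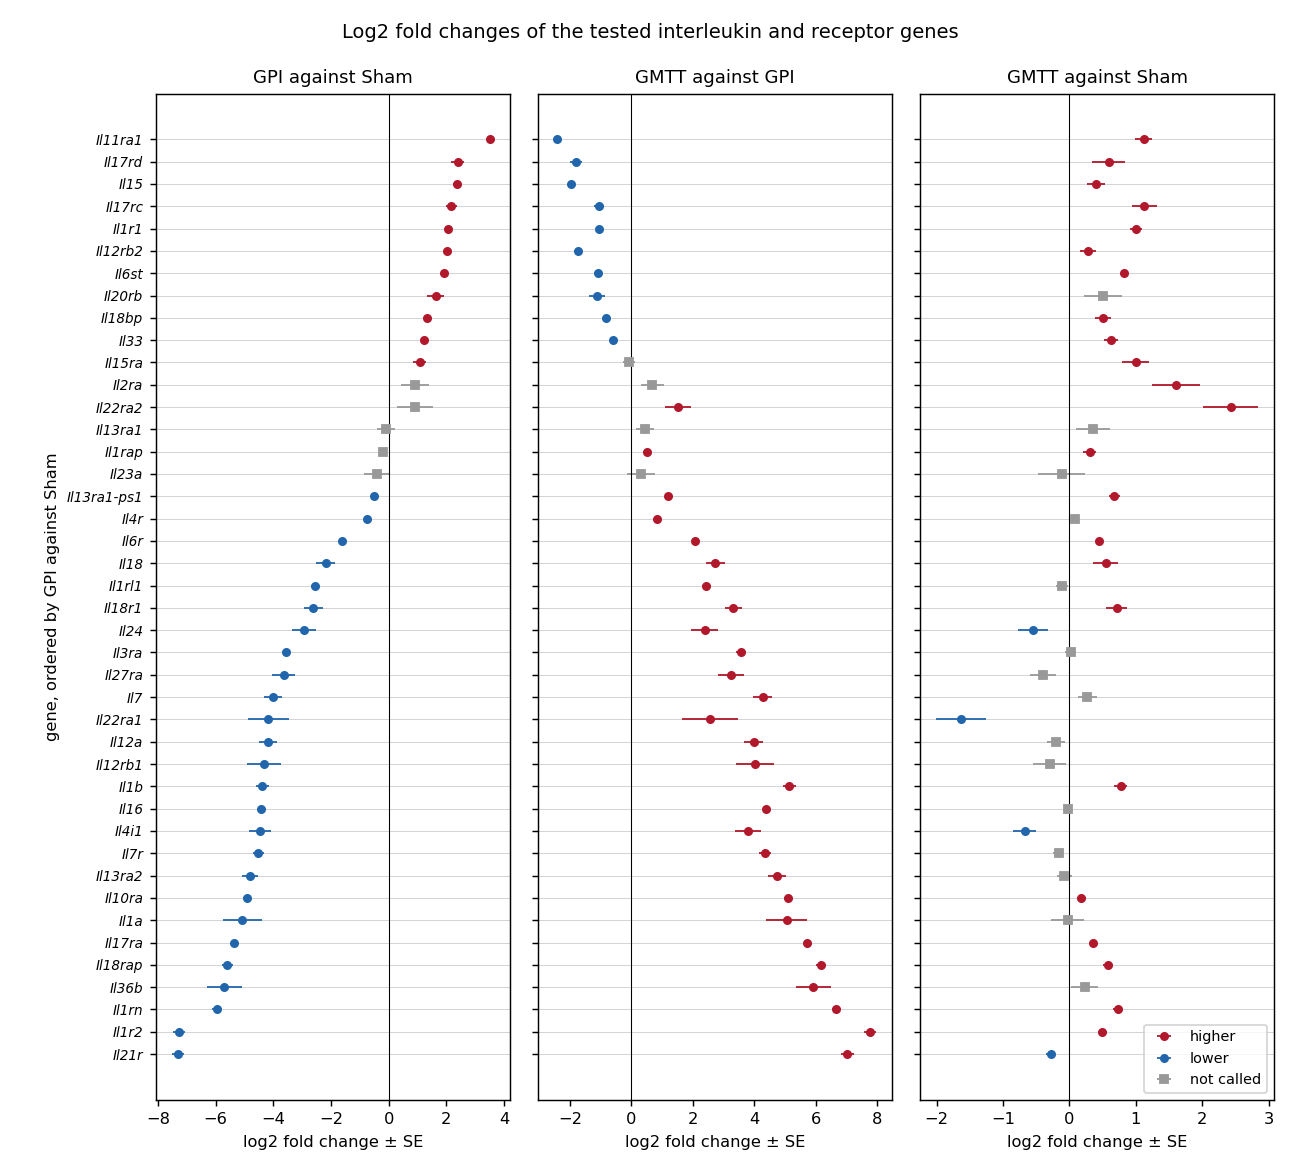
Log2 fold changes with standard errors of the 42 tested members, ordered by their value in GPI against Sham, in 3 panels, 1 per comparison. Values span −7.30 to 3.53 in GPI against Sham, −2.41 to 7.76 in GMTT against GPI and −1.63 to 2.43 in GMTT against Sham.

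The make-up of the set changed with the order of its members. Per length, the highest mean FPKM in GMTT were 96.1 for Il17ra, 24.1 for Il1r2, 21.1 for Il6r and 20.6 for Il1rn. In GPI they were 30.4 for Il6st, 23.1 for Il11ra1, 14.2 for Il15 and 10.3 for Il18bp, and in Sham 73.2 for Il17ra, 16.8 for Il1r2, 15.2 for Il6r and 14.9 for Il3ra. Il17ra, Il1r2 and Il6r thus led in both GMTT and Sham and none of them in GPI. As a share of the counts of all 48 members, Il6st made up 10.7% in GMTT, 50.2% in GPI and 7.71% in Sham, and Il17ra made up 33.8% in GMTT, 1.41% in GPI and 33.7% in Sham. In GPI 17 members had a mean FPKM of at least 1, against 31 in GMTT and 30 in Sham. There, 15 members had at most 10 counts over the 3 libraries, against none in GMTT and 2 in Sham. TMM factors were 0.600 to 0.604 in GPI and 1.28 to 1.30 in the other groups. A limit on raw counts is therefore stricter in GPI at equal normalised CPM. No share of all genes stands beside these numbers of members.

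The genes that carry interleukin signals inside or beside the cell were taken from a list of 32 (adaptors and kinases of the interleukin-1 receptors, Janus kinases, STATs, SOCS inhibitors, partner receptor chains and targets), of which 30 matched by symbol and 28 were tested. In GPI against Sham 9 were called higher and 19 lower, all 28 against 88.2% of all genes, with Cebpb, a transcription factor induced by interleukins 1 and 6 (2.97), and Lifr, the leukaemia inhibitory factor receptor that pairs with gp130 (2.61), as the highest log2 differences. The lowest were Ptpn6, the haematopoietic phosphatase SHP-1 (−5.42), and Ebi3, a subunit of interleukins 27 and 35 (−4.10). In GMTT against GPI 19 were called higher and 9 lower, again all 28 against 85.9% of all genes, from Ptpn6 (5.47) and Csf2rb, the common beta chain (4.17), to Cebpb and Lifr (−1.98 each). In GMTT against Sham 12 were called higher, 3 lower and 13 not, or 53.6% against the background of 57.8%. Osmr, the oncostatin M receptor chain (1.07), and Csf2rb (1.04) were highest there, and Socs1, an inhibitor of Janus kinases (−0.52), and Stat5a, a transcription factor downstream of the common chains (−0.33), were lowest. With library totals alone, 4 in place of 9 were called higher in GPI against Sham and 2 in place of 9 lower in GMTT against GPI.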

How the data were processed

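For 9 femur libraries the authors deposited raw read counts and FPKM, both by gene. Per the labels' protocols, libraries were poly(A)-selected, strand-specific (dUTP) and paired-end, and reads were placed on mRatBN7.2, as the submitters' processing notes record. Aligner, counter and strand setting: not given in the sources used here. The deposited FPKM equals count over length over 1 constant per library, so it already carries a scaling between libraries; its ratio to the library total was near 1.30 in GMTT, 0.60 in GPI and 1.32 in Sham.

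Counts were tested with edgeR 4.0.16 in R 4.3.3 (quasi-likelihood F test, 2-sided, TMM scaling, all 9 libraries in 1 model, default filter with a minimum count of 10), with Benjamini-Hochberg adjustment over 15936 genes. TMM factors were 1.28 to 1.30 in GMTT, 0.600 to 0.604 in GPI and 1.28 to 1.29 in Sham. The SE of a log2 fold change is its size over the square root of F. Counting intervals (exact, 95%) and the floor of 3 counts over a group cover counting error only. The code was tested on simulated data in which few genes changed, in both directions. That simulation did not cover a scaling difference as large as that between GPI and the other groups. Replicates differed by more than sampling noise (chi-square per degree of freedom 1.99 to 5.15), so each library counts as 1 sample.

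Members and lists were chosen with earlier results of these data known. Genes named in full were Il1b, Il1rn and Il6, called members with the 5 highest or 5 lowest log2 differences per comparison, and those with the 5 highest mean FPKM; others are given by role. Il1a, Il36b, Il12rb1, Il1r2, Il21r, Il22ra1, Il6 and Il17re, which had few counts in a group, also have scaled count ratios with counting intervals. The 8 alternatives were median-of-ratios scaling, library totals only, scaling without mitochondrial, muscle and erythroid genes, DESeq2 1.42.0, no low-count filter, at least 5 CPM in 3 libraries, fits of 6 libraries and a replicate block; each library was also left out in turn.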

Additional observations from a re-analysis of the deposited data

How the results depend on the processing

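Most values kept their direction and their side of the threshold: of 2092 recomputed log2 fold changes of members, 2009 did, 38 lost a call, 17 gained one and 28 changed sign. With library totals only, the members called higher in GPI against Sham numbered 7 and those called lower in GMTT against GPI 4. The filter of at least 5 CPM in 3 libraries, which tests fewer members, gave 7 higher in GPI against Sham and 1 lower in GMTT against Sham. With library totals only the sign changed in GMTT against GPI for Il15ra (1.02), Il17rc (0.06), Il18bp (0.28), Il1r1 (0.06), Il33 (0.51) and Il6st (0.01). Of these, Il15ra, Il18bp and Il33 were then called higher. In GPI against Sham it changed for Il15ra (−0.02), Il22ra2 (−0.15) and Il2ra (−0.15), none of them called with that scaling. The uniform shift of that scaling sets these changes of sign. In GMTT against Sham, Il16 was 0.01 with DESeq2 and with median-of-ratios scaling, and Il1a 0.00 and 0.01. Leaving out 1 library also changed the filter, so that 43 to 45 members were tested in place of 42. Those fits gave, for members called in GPI against Sham, 11 to 12 higher and 26 to 27 lower. In GMTT against GPI they gave 29 to 30 higher and 10 lower, and in GMTT against Sham 21 to 25 higher and 3 to 4 lower. The sign varied over those fits for Il15ra in GMTT against GPI (−0.28 to 0.02), for Il13ra1 in GPI against Sham (−0.27 to 0.06), and in GMTT against Sham for Il13ra2 (−0.18 to 0.01), Il16 (−0.06 to 0.00), Il1a (−0.11 to 0.03), Il23a (−0.29 to 0.08) and Il3ra (−0.07 to 0.13), none of them called. Same-numbered libraries did not deviate together (r between −0.146 and 0.061, and 3 of 9 libraries correlated best with their own number); with a replicate block the counts were 11 higher and 26 lower in GPI against Sham, 28 and 10 in GMTT against GPI, and 21 and 3 in GMTT against Sham. Depth limits the members with few GPI counts, whose folds are wide.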

Other observations

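Among the genes below the limit of 30 counts, a few had most of their counts in 1 group; they were picked after their values were seen and carry no test. Il21, a cytokine of helper T cells and the ligand of Il21r, had 0, 0 and 1 counts in GMTT, 3, 11 and 10 in GPI and 1, 0 and 0 in Sham. Its receptor had 6 counts over the GPI libraries, so ligand and receptor counts were highest in different groups. Il12b, the p40 subunit shared by interleukins 12 and 23, had 9, 10 and 5 counts in GMTT, none in GPI and 1 in each Sham library. Il17b, an interleukin-17 relative that binds the receptor encoded by Il17rb, had 1, 0 and 0 counts in GMTT, 0, 3 and 5 in GPI and none in Sham. Il20ra, the partner of Il20rb in the interleukin-20 receptor, had 2, 2 and 3 counts in GMTT, none in GPI and 6, 7 and 3 in Sham, while Il20rb was highest in GPI.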
